A study of Mus musculus with 98 samples.

Results

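The genes described here encode the enzymes and carriers, other than Acss2, that produce acetyl-CoA or move its carbon between cell compartments. They are Acss1, Acss3, Acly, Pdha1, Pdhb, Dlat, Crat, Slc25a1 and Acat1, 9 of the 24754 genes listed in each of 6 count tables. They were chosen by name and not by a rule on measured values, but with earlier results of these data known. Their level was read in 98 mouse libraries that form 22 groups, and was set beside that of Acss2, the gene carried by the virus of the study. The study asked what raising ACSS2 does to gene expression in hippocampal neurons, with and without tau.

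Acetyl-CoA is the donor of acetyl groups for histones and other proteins, and the starting unit of fatty acids and cholesterol. It does not cross the inner mitochondrial membrane. In mitochondria the pyruvate dehydrogenase complex makes it from pyruvate, with Pdha1 and Pdhb as the alpha and beta subunits of the first enzyme and Dlat as the second enzyme, which hands the acetyl group to coenzyme A. Slc25a1 carries citrate out of mitochondria, and Acly splits that citrate in the cytosol and nucleus to give acetyl-CoA again. Acss1 and Acss2 join acetate to coenzyme A, Acss1 in mitochondria and Acss2 in the cytosol and nucleus, and Acss3 is a mitochondrial enzyme with a preference for propionate. Crat moves acetyl groups between coenzyme A and carnitine, and Acat1 splits acetoacetyl-CoA, a product of ketone body use, into acetyl-CoA in mitochondria.

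The cultures were primary hippocampal neurons from CD1 mouse embryos. A PhP.eB virus, either PhP.eB.upACSS2, which carries Acss2, or the empty PhP.eB-vector, was added on culture day 5, and after a wash on day 7 the cells received either PBS or hAD-tau, the tau preparation of the study. Libraries were made on day 9 or day 21, in 8 groups of 3, and 4 further groups of 3 are labelled as stimulated on day 21, with the kind of stimulus not given in the sources used here. A separate day 21 culture without a virus had 3 PBS libraries and 4 that received hAD-tau, and is called the tau culture below. Nothing says whether libraries of a culture group came from separate cultures, so their p-values measure only the spread between these libraries. The aged mice were C57BL6 males of 22 to 23 months, injected behind the eye at 21 to 22 months with 1.5e11 viral genomes, and the whole hippocampus was taken 30 min after a remote memory test about 2 months later, with 12 mice per virus. The 10-month C57BL6 males received 1.2e11 viral genomes and gave the dorsal hippocampus 30 min after fear conditioning, 6 with upACSS2 and 5 with vector. The PS19 males carry a mutant human tau transgene under the Prnp promoter, also in the vector groups, and were injected at 2.5 months with 1.5e10 viral genomes. They were taken 1 or 6 months later, at 3.5 or at 8.5 to 9 months of age, 5 mice per virus and time. In the PS19 mice too the tissue was taken 30 min after a test. Their tissue label is the whole hippocampus for upACSS2 at 1 month and the dorsal part for the remaining PS19 groups, and virus and tissue cannot be told apart at 1 month. The treatment entry contradicts the title for several groups, and groups were taken from titles.

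Total counts ran from 5075099 to 39985460 per library. Levels are log2 CPM (counts scaled to library size by TMM, prior count 2), and each table was scaled alone, so levels set across tables are descriptions. A gene is called when its Benjamini-Hochberg adjusted p in edgeR's quasi-likelihood test, over all genes tested, is under 0.05. Shares of all genes, called or unadjusted, are those of the main edgeR fit. Such shares under DESeq2 or other settings were not computed. Groups of 3 libraries can separate by chance, and the share of all genes whose groups did not overlap was not computed. Acss2 checked the titles: with upACSS2 it lay above every vector library in the 6 neuron comparisons, by 5.21 to 6.49 on the log2 scale. The difference was 0.20 ± 0.05 in the aged mice and 0.31 ± 0.07 in the 10-month mice (log2, SE). In the PS19 mice it was 3.53 at 1 month and 1.19 at 6 months, where the libraries labelled upACSS2 ran from 5.92 to 10.51 and from 5.45 to 7.91 and overlapped those of the vector in both. Acss2 was not called in any mouse comparison of upACSS2 against vector, and neither was any other gene. Neuron markers summed to 3672 to 7126 CPM in the tau culture, 6030 to 12120 CPM in the other cultures and 8314 to 16854 CPM in the mice. Markers of glia were present in the cultures too, with astrocyte markers summing to 2327 to 2906 CPM on day 9 and 3773 to 21348 CPM in unstimulated neurons on day 21. A bulk library cannot tell fewer cells of a type from less RNA per cell. Several libraries stand apart. PBS replicate 3 of the tau culture had an astrocyte sum of 2348 CPM, against 8516 and 10486 CPM in its group. Day 21 vector PBS replicate 3 had the 21348 CPM just given. In the aged mice, replicates 1 to 3 of both viruses had endothelial and mural sums of 236 to 350 CPM against 107 to 206 CPM in replicates 4 to 12.

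Per kilobase of exon, which allows levels to be compared between genes, Pdha1 was the highest of the 9 genes in the mice and Acss3 the lowest. In aged mice with vector Pdha1 was at 92.6 CPM per kilobase. Acly (31.6), Pdhb (31.5), Dlat (31.3) and Acat1 (30.2) followed at nearly the same CPM per kilobase. Slc25a1 was at 12, Acss1 at 7.70, Crat at 6.5, Acss2 at 4.65 and Acss3 at 0.405 CPM per kilobase. The order differed in young cultures. In day 9 neurons with vector and PBS Acly was first at 141 CPM per kilobase, before Pdha1 at 106, Acat1 at 84.9 and Slc25a1 at 79.3, while Acss1 was at 3.24 and Acss3 at 0.0774 CPM per kilobase. By day 21 in the same arm Pdha1 led at 77.1, Acly was at 35.8 and Acss1 at 12.6 CPM per kilobase. Lengths are the union of all annotated exons, which is 10163 bases for Acss2.

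**Figure D1:**
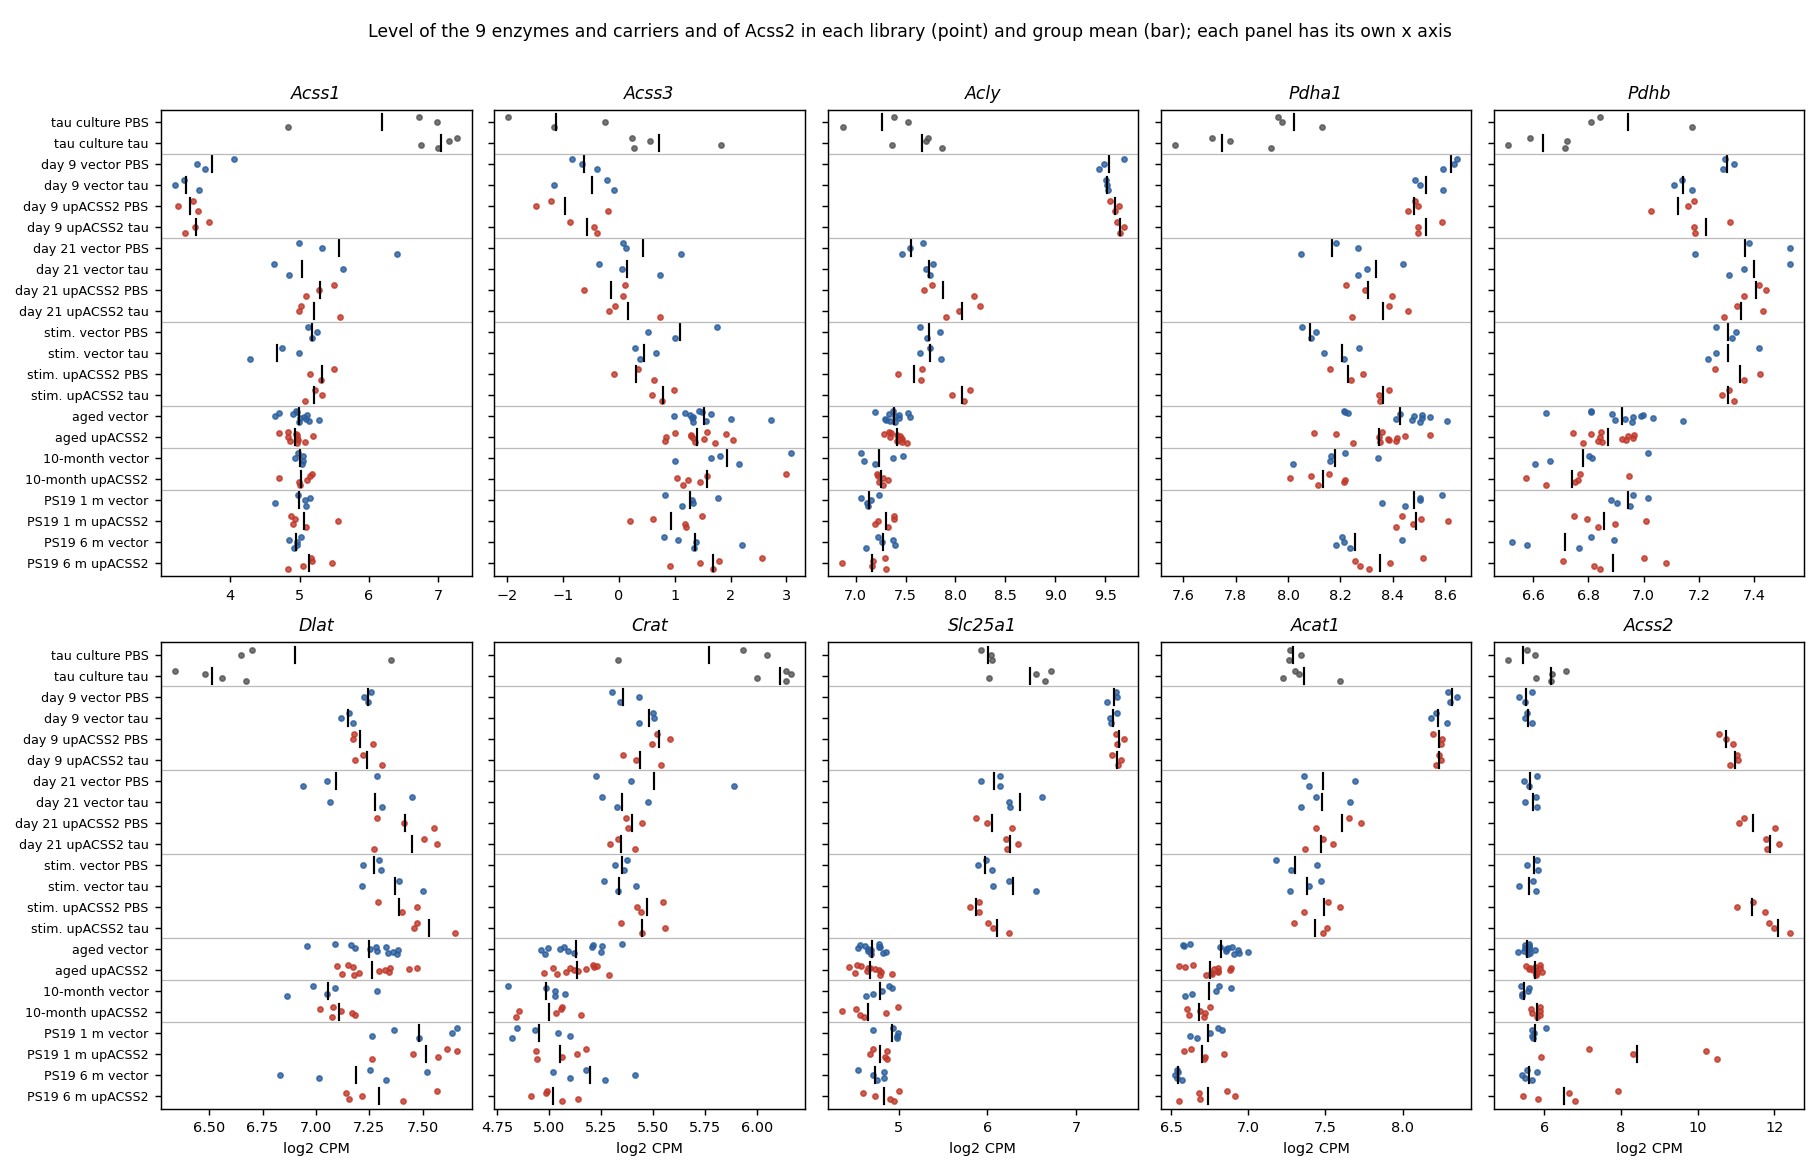
Log2 CPM (x axis, its own range in each panel) of the 9 genes and of Acss2 in each of 98 libraries (points) of 22 groups (rows), with the group mean as a bar; red marks upACSS2, blue vector and grey cultures without virus. Acly, Slc25a1 and Acat1 are highest in the 4 day 9 groups, where Acss1 is lowest, and Acss2 separates red from blue in the neurons.

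Ordered by group, Acss1 was lowest in day 9 neurons, with group means of 3.37 to 3.73, and highest in the tau culture, at 7.05 ± 0.23 with tau (SD, n = 4) and 6.18 ± 1.17 with PBS (SD, n = 3). All other groups lay between 4.68 and 5.57, and no library of them overlapped day 9. The 8 mouse groups had means between 4.94 and 5.14, with libraries from 4.65 to 5.55. Acss3 had the fewest counts, 1 to 152 per library, and ran from -1.13 in the PBS arm of the tau culture to 1.94 in 10-month mice with vector. For Acly the 4 day 9 groups were at 9.52 to 9.65, the other culture groups at 7.26 to 8.07 and the mouse groups at 7.14 to 7.41. Slc25a1 followed the same order, at 7.42 to 7.48, 5.87 to 6.49 and 4.65 to 4.92. Acat1 did too, at 8.23 to 8.32, 7.29 to 7.61 and 6.55 to 6.82. The pyruvate dehydrogenase genes spanned less: Pdha1 group means lay between 7.75 and 8.62, Pdhb between 6.64 and 7.41, and Dlat between 6.51 and 7.53. For all 3 the tau arm of the tau culture was the lowest group. Crat was between 4.95 and 5.53 in all groups but those of the tau culture, at 5.77 and 6.11.

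The longest step in the data was the age of the culture. From day 9 to day 21 Acss1 rose and Acly, Slc25a1 and Acat1 fell in all 4 arms, that is with vector or upACSS2 and with PBS or tau. Between 4 and 6 of the 9 genes were called per arm. Against all genes this is not a high share: 57.7% of the genes tested were called with vector and PBS (30.6% higher, 27.1% lower), 52.6% with vector and tau (27.7% higher, 24.9% lower), 54.3% with upACSS2 and PBS (28.5% higher, 25.8% lower) and 53.6% with upACSS2 and tau (27.2% higher, 26.4% lower). The median absolute log2 fold change was 0.63 to 0.83 over the 9 genes and 0.39 to 0.43 over all genes. This did not hold for each member. Pdhb, Dlat and Crat were below the median of all genes in every arm, and Pdha1 in all but vector and PBS.

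Acly, which makes cytosolic acetyl-CoA from citrate, had the largest decrease. With vector and PBS its log2 CPM was 9.69, 9.49 and 9.44 on day 9 and 7.68, 7.54 and 7.46 on day 21. With upACSS2 and PBS it was 9.55, 9.64 and 9.60, and then 7.77, 7.68 and 8.19. Every day 21 library lay more than a full log2 unit below every day 9 library. The log2 fold change was -1.98 ± 0.11 with vector and PBS (SE, edgeR adjusted p 2.27e-11), -1.79 ± 0.11 with vector and tau (9.19e-11), -1.71 ± 0.11 with upACSS2 and PBS (1.63e-10) and -1.58 ± 0.11 with upACSS2 and tau (4.98e-10). Whether the arms differed in this decrease was not tested.

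Slc25a1, the mitochondrial citrate carrier that supplies Acly, fell with it. Its log2 CPM with vector and PBS was 7.46, 7.47 and 7.35 on day 9 and 6.15, 5.92 and 6.14 on day 21. With vector and tau it was 7.46, 7.38 and 7.40, and then 6.62, 6.24 and 6.25. The 2 days did not overlap in any arm. Its log2 fold change was -1.36 ± 0.10 with vector and PBS, -1.04 ± 0.10 with vector and tau, -1.43 ± 0.10 with upACSS2 and PBS and -1.21 ± 0.10 with upACSS2 and tau (SE), with edgeR adjusted p from 5.05e-10 to 4.4e-08.

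Acat1, the mitochondrial thiolase, fell by 0.63 to 0.83 on the log2 scale. Its log2 CPM with vector and PBS was 8.30, 8.35 and 8.31 on day 9 and 7.36, 7.69 and 7.39 on day 21, again without overlap. The log2 fold changes were -0.83 ± 0.09 and -0.75 ± 0.09 with vector, in PBS and in tau, and -0.63 ± 0.09 and -0.77 ± 0.09 with upACSS2 (SE), and edgeR's adjusted p was at most 1.15e-05.

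Acss1, the mitochondrial acetyl-CoA synthetase, went the other way. With vector and PBS its log2 CPM was 4.05, 3.52 and 3.63 on day 9 and 4.99, 5.33 and 6.41 on day 21. With upACSS2 and tau it was 3.69, 3.49 and 3.35, and then 5.02, 5.00 and 5.58. All day 21 libraries were above all day 9 libraries in each arm. The log2 fold change was 1.94 ± 0.29 with vector and PBS (SE, edgeR adjusted p 9.32e-06), 1.73 ± 0.30 with vector and tau (6.51e-05), 1.88 ± 0.29 with upACSS2 and PBS (1.98e-05) and 1.72 ± 0.29 with upACSS2 and tau (4.73e-05). Without day 21 vector PBS replicate 3, the library with the high astrocyte sum, the first value was 1.41 (adjusted p 5.18e-05).

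Acss3, which favours propionate, was called in the vector and PBS arm alone. Its log2 CPM there was -0.84, -0.66 and -0.40 on day 9 and 0.08, 0.13 and 1.10 on day 21, a log2 fold change of 1.31 ± 0.43 (SE, edgeR adjusted p 0.0124). Without replicate 3 of day 21 it was 0.85 with an adjusted p of 0.117, and without replicate 1 of day 9 1.16 with 0.0639. The other arms gave 0.70, 0.83 and 0.87, none called. On day 9 Acss3 had 4 to 18 counts per library. It shares 2436 exon bases with Ppfia2, a synaptic scaffold gene on the opposite strand at a mean of 84 to 329 CPM in the culture groups. Without a stated strand setting reads of the pair cannot be told apart. Ppfia2 itself had a log2 fold change of -0.64 in the vector and PBS arm (adjusted p 0.00191), the opposite sign.

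The pyruvate dehydrogenase genes and Crat moved little with culture age. Pdha1 fell with vector, at -0.46 ± 0.08 in PBS (log2, SE, edgeR adjusted p 3.43e-05) and -0.20 ± 0.08 in tau (0.0353). The call in tau was lost without the filter on low counts (0.0761), with only the groups compared in the fit (0.0913) and without vector tau replicate 2 or 3 of either day (0.0575 to 0.126). With upACSS2 the values were -0.18 (0.0513) and -0.16 (0.0733), not called, although all day 21 libraries were below all day 9 libraries in those arms as well. Pdhb rose by 0.26 ± 0.08 with vector and tau (adjusted p 0.0127) and 0.28 ± 0.08 with upACSS2 and PBS (0.0066), and had 0.07 and 0.12 in the other arms, not called. Without vector tau replicate 1 of day 21 the first was 0.18 and not called (0.0832). Dlat ran from -0.15 to 0.21 and Crat from -0.14 to 0.17, with no call in any arm. Acss2 itself had log2 fold changes of 0.11 and 0.12 with vector, not called, and 0.75 and 0.93 with upACSS2, both called.

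**Figure D2:**
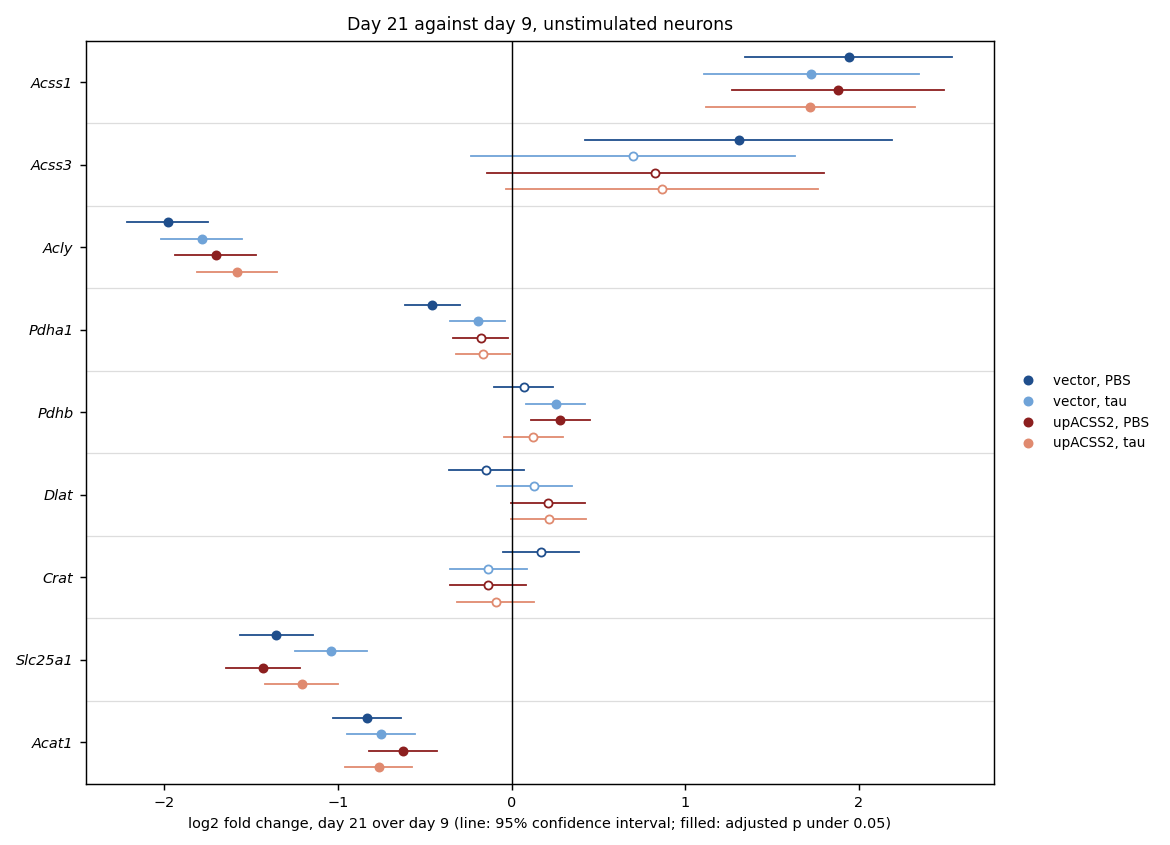
Log2 fold change of day 21 over day 9 (x axis, log2) of the 9 genes in the 4 arms of unstimulated neurons, 3 libraries per arm and day, with 95% confidence intervals from edgeR; filled points have an adjusted p under 0.05. Acly, Slc25a1 and Acat1 lie below 0 and Acss1 above 0 in all 4 arms, and Dlat and Crat are not called in any.

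Markers of other cells moved with culture age as well. Of 10 astrocyte markers 9, 6, 6 and 9 were higher on day 21 in the 4 arms, in the order given above, and none was lower. Of 10 oligodendrocyte lineage markers 9, 8, 9 and 9 were higher and 1 was lower. Neuron markers were mixed, with 3, 4, 4 and 6 of 10 higher and 3, 2, 2 and 2 lower. The culture library with the highest astrocyte sum, at 21348 CPM, had Acss1 at 6.41, and that with the next, tau culture replicate 1 with tau at 14675 CPM, had it at 7.28, the highest of all. Their part in the changes of Acss1, Acly, Slc25a1 and Acat1 was not tested.

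**Figure D3:**
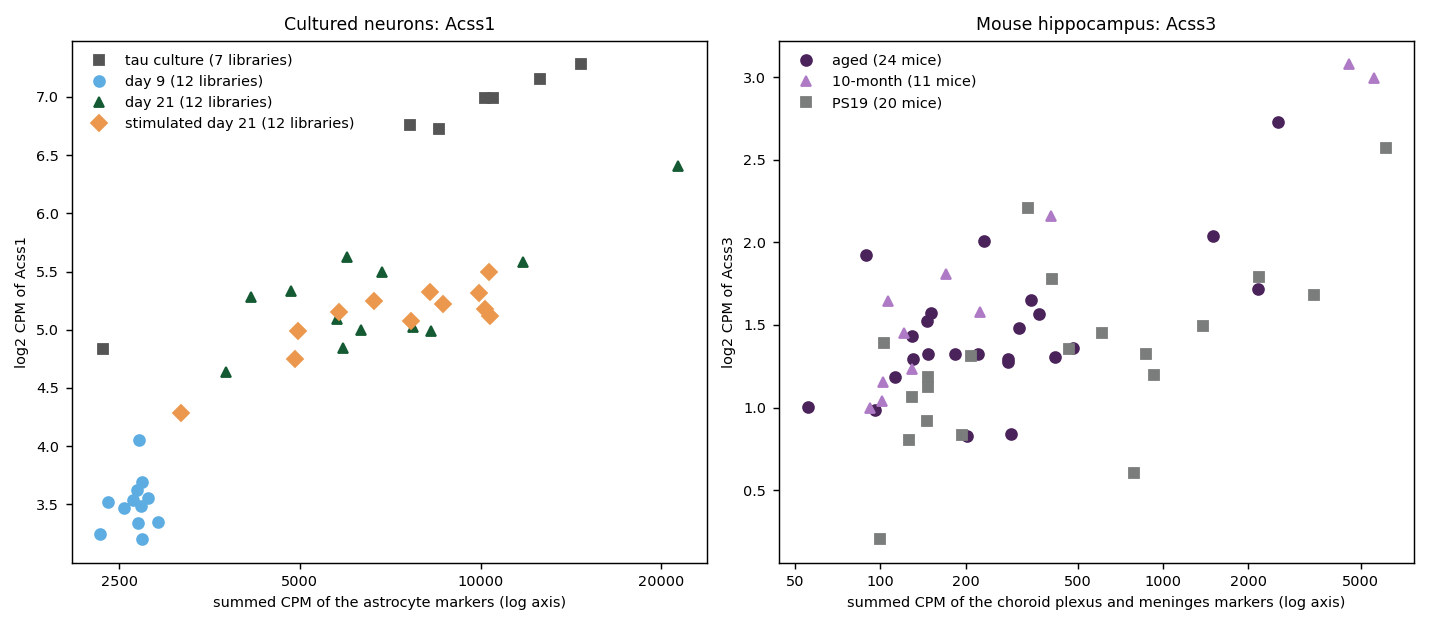
Left: log2 CPM of Acss1 (y axis) against the summed CPM of 10 astrocyte markers (log x axis) in 43 culture libraries; right: log2 CPM of Acss3 against the summed CPM of 10 choroid plexus and meninges markers (log x axis) in 55 mice. Day 9 libraries sit at the lower left, day 21 vector PBS replicate 3 has the highest astrocyte sum (21348 CPM) with Acss1 at 6.41, and the 3 mice with the highest Acss3 levels (2.73 to 3.08) have choroid plexus and meninges sums of 2558 to 5558 CPM, while the mouse with the highest sum, 6116 CPM, has Acss3 at 2.57 and another at 3418 CPM has it at 1.68.

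Genes next to these enzymes in the same pathways also changed with culture age. Of 44 such genes 42 were tested, and 18, 17, 15 and 18 were higher and 12, 12, 13 and 12 lower on day 21 in the 4 arms, with a median log2 fold change of 0.15 to 0.22 against 0.01 to 0.05 over all genes. Among 10 genes of carnitine transport and fatty acid oxidation 8, 7, 7 and 7 were higher and 1 was lower. Among 10 tested genes that use acetyl-CoA or release acetate 6 were lower in each arm, and 3, 2, 2 and 3 were higher. With vector and PBS, Pdk4, a kinase that inhibits pyruvate dehydrogenase, was among the highest at 2.52, and Hmgcs1, an enzyme of cholesterol synthesis, among the lowest at -2.53. With vector and tau Pdk4 (2.40), the mitochondrial isocitrate dehydrogenase Idh2 (1.49), the monocarboxylate carrier Slc16a7 (-1.95) and Hmgcs1 (-1.92) stood at the ends. Pdk4 at 1.64, Idh2 at 1.28, Slc16a7 at -1.79 and Hmgcs1 at -1.78 did so with upACSS2 and PBS. With upACSS2 and tau Pdk4 (2.52) was among the highest, and Slc16a7 (-1.80) and the cytosolic thiolase Acat2 (-1.61) were the lowest.

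The upstream sequences of Acly and Slc25a1 are shown because these genes, which act in sequence on citrate, had the largest decreases. Acly lies at chr11:100476353-100528000 and Slc25a1 at chr16:17925223-17928219, both on the minus strand in GRCm38. The 250 bases before the start annotated by RefSeq are chr11:100528001-100528250 and chr16:17928220-17928469. They are printed 5′ to 3′ on the strand of the gene, and capitals mark matches to any of 4 motifs on either strand: the sterol element TCACNCCAC, the NF-Y box CCAAT, the GC box GGGCGG and the E-box CACGTG.
Acly: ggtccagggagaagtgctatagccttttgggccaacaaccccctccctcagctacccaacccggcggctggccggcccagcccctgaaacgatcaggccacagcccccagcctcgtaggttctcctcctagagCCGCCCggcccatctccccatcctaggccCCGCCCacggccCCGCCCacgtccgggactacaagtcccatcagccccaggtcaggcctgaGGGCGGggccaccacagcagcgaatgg
Slc25a1: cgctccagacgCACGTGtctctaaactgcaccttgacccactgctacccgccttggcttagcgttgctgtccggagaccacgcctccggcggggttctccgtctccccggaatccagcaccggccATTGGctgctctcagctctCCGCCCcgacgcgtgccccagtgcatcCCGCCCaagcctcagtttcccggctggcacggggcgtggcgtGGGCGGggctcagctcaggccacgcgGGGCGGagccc
Acly had 4 GC boxes, and Slc25a1 had 4 GC boxes with 1 NF-Y box and 1 E-box. Of 32851 promoters of this length 32.7% hold a GC box, 33.8% an NF-Y box, 6.02% an E-box and 1.05% the sterol element, which neither window holds. Among the other members searched, Pdha1 has none of the 4 motifs in its window, Dlat has 1 GC box and Acss1 has 2. Pdhb has 3 NF-Y boxes and 2 GC boxes, and Acss2 has 4 GC boxes and 1 NF-Y box. Windows of Acss3, Crat and Acat1 were not searched. A match of letters is a description of the sequence. In GRCm38 Acss1 is at chr2:150618105-150668500, Pdha1 at chrX:160122209-160138413, Pdhb at chr14:8165996-8173025, Dlat at chr9:50634633-50659780, Crat at chr2:30400471-30415813, Acss3 at chr10:106933517-107123668 and Acat1 at chr9:53580522-53610382, all on the minus strand. Exons of Pdha1 share 603 bases with Map3k15, those of Crat 411 with Gm16323 and 59 with Dolpp1, and those of Acss1 113 with E130215H24Rik, all on the opposite strand, so their counts may include reads of these genes.

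On day 9, upACSS2 against vector in PBS gave 2 of the 9 genes called, both lower and both subunits of the same enzyme, Pdha1 and Pdhb. Of all genes tested 10.2% were called in this comparison. Pdha1 was at 8.65, 8.63 and 8.59 log2 CPM with vector and at 8.49, 8.50 and 8.46 with upACSS2. Pdhb was at 7.29, 7.33 and 7.29 with vector and at 7.18, 7.16 and 7.03 with upACSS2. The groups did not overlap for either gene, and the differences were small: -0.15 ± 0.04 for Pdha1 (log2, SE, edgeR adjusted p 0.0185) and -0.18 ± 0.05 for Pdhb (0.0175). Dld and Pdhx, 2 further subunits of the complex that were picked out after their values were seen, fell as well, by 0.18 and 0.15 on the log2 scale. Dlat, the remaining subunit, was at -0.04 and was not called. With all 24 unstimulated libraries in the fit neither Pdha1 nor Pdhb was called, and leaving out 1 library at a time left 0 to 3 of the 9 genes called, with 0 without upACSS2 PBS replicate 3 and 1 without replicate 1 of either group. Without vector PBS replicate 2 neither Pdha1 (adjusted p 0.0614) nor Pdhb (0.0655) was called, and Acss1 and Crat were.

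The vector libraries in PBS also serve as the baseline of tau against PBS with vector on day 9, so the 2 comparisons are not independent. Side by side, upACSS2 against vector in PBS and tau against PBS with vector gave -0.36 and -0.42 for Acss1, -0.18 and -0.15 for Pdhb, -0.15 and -0.09 for Pdha1 and 0.17 and 0.14 for Crat, on the log2 scale. Without vector PBS replicate 1, at 4.05 log2 CPM, the values of Acss1 were -0.16 and -0.22. For tau with vector edgeR called 0 of the 9 genes against 4.28% of all genes, and DESeq2 also called 0. An unadjusted p under 0.05 was found for 4 of the 9 and for 20.6% of all genes. The lowest edgeR adjusted p was 0.0618 for Acss1. Without vector tau replicate 3 edgeR called 3, and without vector PBS replicate 2 or 3 it called 1. Among the pathway genes 2 rose and 5 fell with upACSS2 in PBS, of 41 tested. Cs (0.12), which makes citrate from acetyl-CoA, was among the higher ones, and the lowest were Slc25a20 (-0.34), the carnitine carrier, and Acadvl (-0.34), which starts the oxidation of long fatty acids. With tau and vector Acadvl (-0.25) and Pdhx (-0.18) fell. In the upACSS2 and PBS comparison 5 of 8 tested oligodendrocyte lineage markers were lower, and 4 neuron markers were higher with 1 lower. Their part in the result was not tested.

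In tau on day 9, upACSS2 against vector left 0 of the 9 genes called by edgeR and by DESeq2, with 0.692% of all genes called. Under an unadjusted p of 0.05 were 1 of the 9, Acly at 0.12, and 12.6% of all genes. Tau against PBS with upACSS2 gave 0 calls by either tool, against 0.349% of all genes, and 1 unadjusted (Pdhb, 0.10), against 9.05% of all genes. The interaction asks whether the response to upACSS2 differs between tau and PBS. With edgeR it had 0 calls, against 0.663% of all genes, and 4 unadjusted, against 17.2%. DESeq2 called 1 (Pdhb). Its largest estimates were 0.50 ± 0.18 for Acss1 (adjusted p 0.149) and 0.25 ± 0.07 for Pdhb (0.0613), on the log2 scale. Without the filter on low counts edgeR called both, and without vector tau replicate 3 it called 1 of the 9 genes. Acadvl was the 1 pathway gene called for the interaction, at 0.37.

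On day 21 no member was called for virus or tau. Both edgeR and DESeq2 called 0 of the 9 genes for upACSS2 against vector in PBS (2 unadjusted, 0.0137% of all genes called) and in tau (1 unadjusted, 0.0273%). They did so as well for tau against PBS with vector (1 unadjusted, 0% of all genes called), with upACSS2 (0 unadjusted, 0%) and for the interaction (0 unadjusted, 0%). Of all genes 16.6%, 10.7%, 9.3%, 6.36% and 8.3% were under an unadjusted p of 0.05 in these comparisons, in the order given. Libraries of this day vary more, with a biological coefficient of variation of 0.189 against 0.042 on day 9. For Acly the groups did not overlap. It was at 7.68, 7.54 and 7.46 log2 CPM with vector and PBS and at 7.77, 7.68 and 8.19 with upACSS2 and PBS, and at 7.77, 7.70 and 7.74 against 8.25, 8.04 and 7.91 in tau. The upACSS2 libraries were above all vector libraries, by 0.33 ± 0.14 in PBS (log2, SE, edgeR adjusted p 0.278, 95% interval 0.02 to 0.63; 0.16 without upACSS2 PBS replicate 3) and by 0.34 ± 0.14 in tau (0.427, 0.03 to 0.64). Dlat in PBS had 0.32 ± 0.14 (adjusted p 0.283), also without overlap, and with all 24 unstimulated libraries in the fit it was called at an adjusted p of 0.0492.

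In stimulated neurons edgeR called 0 of the 9 genes in each of 5 comparisons. For upACSS2 against vector in PBS DESeq2 called 0 too, and edgeR called 0.208% of all genes. Under an unadjusted p of 0.05 were 1 of the 9 and 15.9% of all genes. For upACSS2 against vector in tau edgeR called 0.937% of all genes, with 3 of the 9 and 20.4% of all genes unadjusted. DESeq2 called 2 of the 9 (Acss1 and Acly), without a share of all genes to set beside them. Acly there was at 7.74, 7.65 and 7.86 log2 CPM with vector and at 8.14, 7.96 and 8.09 with upACSS2, without overlap, a difference of 0.31 ± 0.09 (SE, edgeR adjusted p 0.1). Acss1 was at 4.75, 4.99 and 4.28 with vector and at 5.22, 5.32 and 5.08 with upACSS2, a difference of 0.51 ± 0.15 (adjusted p 0.102), or 0.33 without vector tau replicate 3. Astrocyte markers summed to 3166 to 4972 CPM with vector and 7663 to 8671 CPM with upACSS2 in these libraries, and their part in the difference was not tested. In PBS the difference for Acly was -0.15, the other sign. Without vector tau replicate 2 edgeR called 1 gene here, and 2 for tau against PBS with vector.

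For tau against PBS in stimulated neurons with vector edgeR called 0 of the 9 genes and 3.02% of all genes, and DESeq2 called 1 of the 9 (Acss1). Under an unadjusted p of 0.05 were 3 of the 9 and 24.3% of all genes. Acss1 was at 5.12, 5.25 and 5.18 log2 CPM with PBS and at 4.75, 4.99 and 4.28 with tau, a difference of -0.48 ± 0.15 (SE, edgeR adjusted p 0.0811), or -0.31 without tau replicate 3. Astrocyte markers summed to 6632 to 10354 CPM with PBS and to 3166 to 4972 CPM with tau, and their part in the difference was not tested. Slc25a1 had 0.32 ± 0.11 (adjusted p 0.112), with all tau libraries above all PBS libraries, and with the replicate number as a block it was called (adjusted p 0.0474). It was 0.18 without tau replicate 3 (0.359) and 0.43 without tau replicate 2 (0.0312). With upACSS2 the same contrast had 0 calls with edgeR, against 0.208% of all genes, and 1 unadjusted, against 14.3%. DESeq2 called 1 (Acly). Acly was at 7.67, 7.43 and 7.66 with PBS and at 8.14, 7.96 and 8.09 with tau, a difference of 0.48 ± 0.09 (adjusted p 0.0665), and was also called without the filter or with only the 2 groups in the fit. Pdk1, another pyruvate dehydrogenase kinase, rose by 1.26 and Acat2 by 0.65 in this contrast, of 43 pathway genes tested. The interaction had 0 calls by either tool, against 0% of all genes, with 2 of the 9 and 14.3% of all genes unadjusted.

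**Figure D4:**
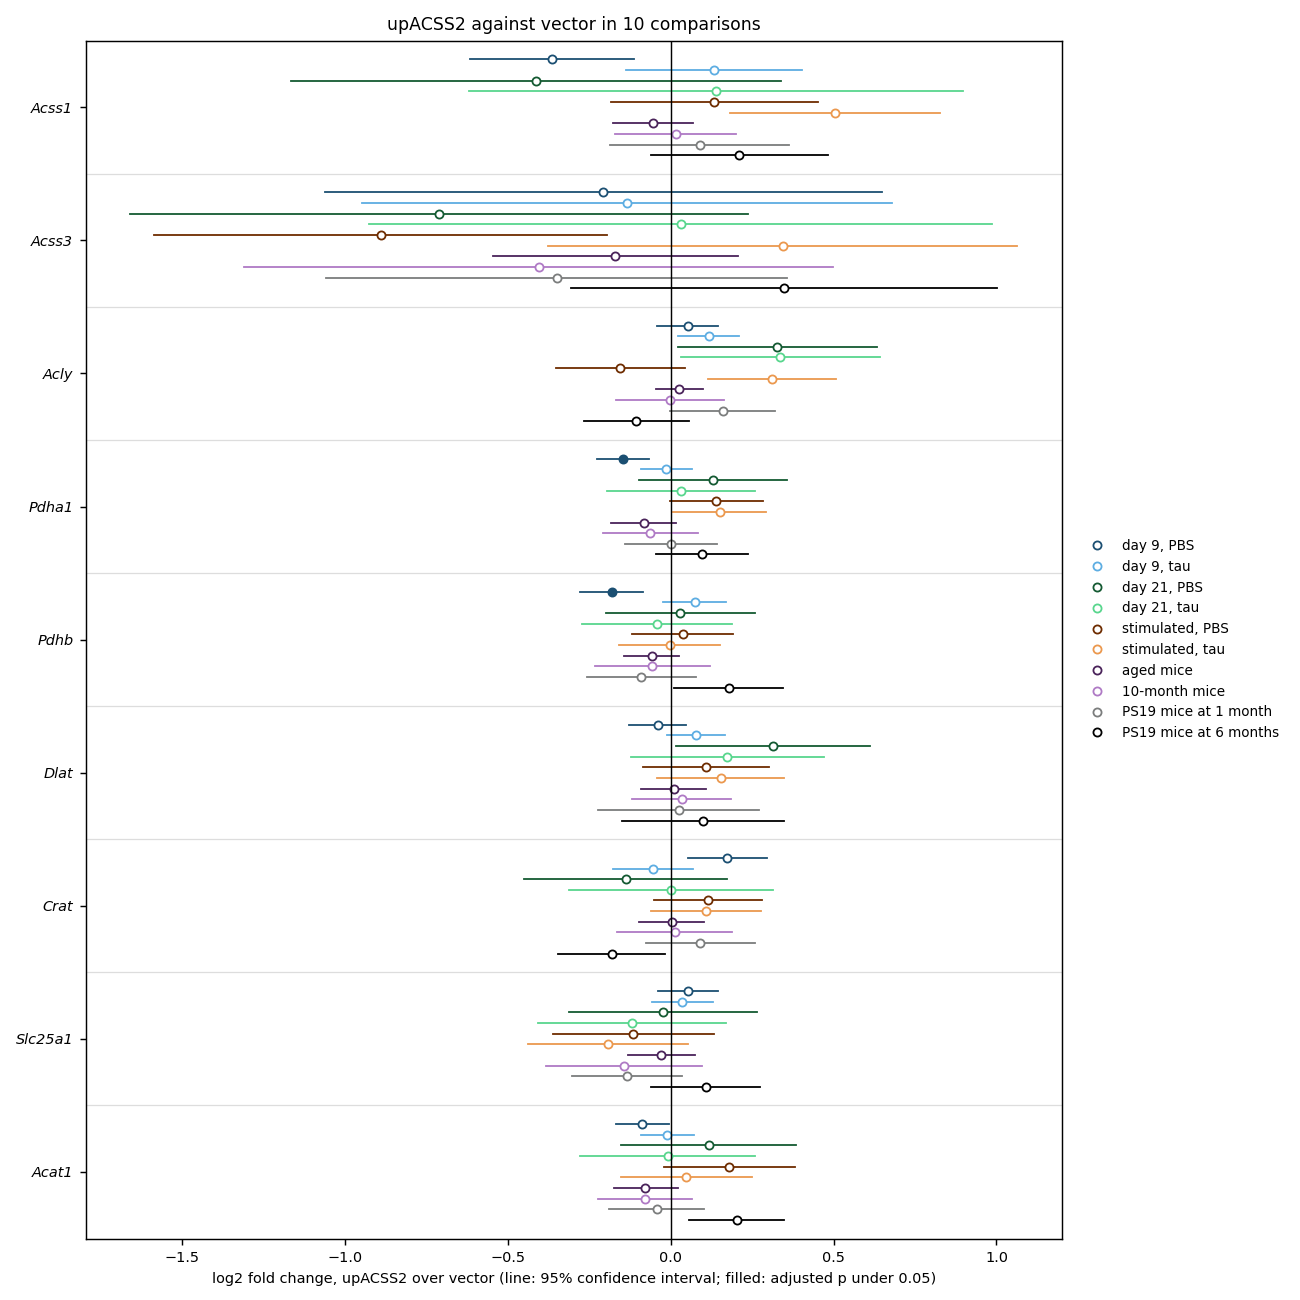
Log2 fold change of upACSS2 over vector (x axis, log2) of the 9 genes in 10 comparisons, 6 in neurons and 4 in mice, with 95% confidence intervals from edgeR; filled points have an adjusted p under 0.05. Pdha1 and Pdhb in day 9 neurons with PBS are the 2 filled points, and most other intervals span 0.

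In the tau culture 0 of the 9 genes were called by edgeR or DESeq2, and 0% of all genes were called. An unadjusted p under 0.05 was found for 5 of the 9 and for 13.9% of all genes. Acss3 was listed at -1.98, -0.24 and -1.16 log2 CPM with PBS and at 0.23, 0.56, 1.83 and 0.26 with tau, a difference of 1.85 ± 0.60 (SE, edgeR adjusted p 0.319) that rests on 1 to 87 counts per library. Pdha1 was at 7.96, 7.98 and 8.13 with PBS and at 7.71, 7.78, 7.57 and 7.93 with tau, lower in every tau library, at -0.29 ± 0.12 (adjusted p 0.344). Pdhb was at 6.84, 6.81 and 7.18, and then 6.59, 6.72, 6.51 and 6.72, at -0.34 ± 0.12 (0.326). Dlat had -0.44 ± 0.19 and Slc25a1 0.48 ± 0.17. PBS replicate 3, which stands apart, had Dlat at 7.35 against 6.70 and 6.65, and Acss1 at 4.84 against 6.72 and 6.99. Without it Pdha1 had -0.24, Pdhb -0.21, Dlat -0.17, Acss3 1.59 and Slc25a1 0.51, none called. Acss2, with no virus present, was at 5.54, 5.75 and 5.06 with PBS and at 6.58, 6.20, 5.78 and 6.17 with tau, a difference of 0.72 ± 0.22 (adjusted p 0.319).

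In the mice upACSS2 against vector gave no call among the 9 genes, and Acss2 itself was not called either. In the aged mice edgeR and DESeq2 called 0, against 0% of all genes, with 0 of the 9 and 5.58% of all genes unadjusted. The estimates lay between -0.17 and 0.03 on the log2 scale, and their 95% intervals between -0.55 and 0.21. Pdha1 ran from 8.21 over a median of 8.48 to 8.61 log2 CPM with vector and from 8.10 over 8.37 to 8.54 with upACSS2, overlapping widely. Acat1 ran from 6.57 over 6.86 to 7.00 with vector and from 6.55 over 6.77 to 6.89 with upACSS2. The set of the replicate was the wider split in this table: Acat1 was at 6.55 to 6.64 in replicates 1 to 3 of both viruses and at 6.73 to 7.00 in replicates 4 to 12, without overlap. Pdha1 had medians of 8.22 and 8.44, and Dlat of 7.12 and 7.33, in the same sets. With a term for the sets, or in either set alone, edgeR again called 0 of the 9 genes for the virus.

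The 10-month mice had 0 calls by either tool, against 0% of all genes, with 0 of the 9 and 8.83% of all genes unadjusted. Estimates lay between -0.40 (Acss3) and 0.03 (Dlat). Slc25a1 was at 4.89, 4.92, 4.81, 4.71 and 4.63 log2 CPM with vector, and ran from 4.36 over 4.58 to 4.99 with upACSS2, so the groups overlapped (-0.14 ± 0.11, SE). Acss3 reached 2.996 in upACSS2 replicate 1 and 3.08 in vector replicate 1, against 1.00 to 2.16 in the other 9 mice. Those 2 mice also had choroid plexus and meninges sums of 5558 and 4529 CPM, against 92 to 399 CPM in the others. PS19 vector replicate 4 at 6 months had Acss3 at 2.21 with a sum of 332 CPM. The part of this tissue in the Acss3 level was not tested.

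In PS19 mice at 1 month edgeR and DESeq2 called 0 of the 9 genes for upACSS2 against vector, against 0% of all genes. There 0 of the 9 and 2.92% of all genes were unadjusted. At 6 months both tools again called 0, against 0% of all genes. Unadjusted were 3 of the 9 (Pdhb at 0.18, Crat at -0.18 and Acat1 at 0.20) and 14.1% of all genes. Acat1 was at 6.54, 6.55, 6.53, 6.54 and 6.57 log2 CPM with vector and at 6.86, 6.68, 6.91, 6.69 and 6.55 with upACSS2, where 4 of 5 lay above all vector mice (0.20 ± 0.07, SE, edgeR adjusted p 0.234). Choroid plexus and meninges markers summed to 146 to 6116 CPM with upACSS2 and to 103 to 465 CPM with vector at 6 months. Neuron markers summed to 9591 to 12228 CPM and to 8314 to 13162 CPM. Their part in these differences was not tested. The interaction of virus and time had 0 calls by either tool, against 0% of all genes, with 5 of the 9 and 12.3% of all genes unadjusted. Its estimates ran from -0.27 (Crat) to 0.70 (Acss3), with a lowest edgeR adjusted p of 0.366.

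Between 1 and 6 months after injection, PS19 mice with vector differed in 1 of the 9 genes, Pdha1, by edgeR. It was at 8.59, 8.50, 8.51, 8.36 and 8.45 log2 CPM at 1 month and at 8.21, 8.44, 8.21, 8.18 and 8.24 at 6 months. Its log2 fold change was -0.24 ± 0.07 (SE, edgeR adjusted p 0.041), with an overlap through replicate 2 at 6 months. Of all genes edgeR called 7.46%, and 6 of the 9 had an unadjusted p under 0.05, as did 25.1% of all genes. DESeq2 called 3 (Pdha1, Pdhb and Acat1), and edgeR without the filter on low counts 0. With only the 2 groups in the fit Pdha1 was not called (0.0531) and Acat1 was (0.033). The call of Pdha1 was lost when vector replicate 1, 2 or 3 of 1 month or replicate 1, 3, 4 or 5 of 6 months was left out, with 0 to 2 genes called over all 10 such fits. Pdhb had -0.23 ± 0.08 (adjusted p 0.0766), Dlat -0.29 ± 0.12 (0.129), Slc25a1 -0.20 ± 0.08 (0.134) and Crat 0.24 ± 0.08 (0.0698). Acat1 was at 6.81, 6.83, 6.75, 6.63 and 6.67 at 1 month against 6.53 to 6.57 at 6 months, lower in every mouse, at -0.21 ± 0.07 (adjusted p 0.0741). The animals were 5 months or more older at the later time, so time after injection and age cannot be told apart.

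The other pathway genes that fell in these mice were Hmgcs1 (-0.64), Oxct1 (-0.26), which activates ketone bodies in mitochondria, and Pdhx (-0.24), a structural subunit of the pyruvate dehydrogenase complex, 3 of 43 tested. Neuron marker sums were 11641 to 15148 CPM at 1 month and 8314 to 13162 CPM at 6 months, with replicates 3 and 4 at 6 months at the low end (8314 and 9135 CPM). Of 10 oligodendrocyte lineage markers 3 were higher, as was 1 of 10 microglia markers. Their part in the changes was not tested. With upACSS2 the tissue label is whole at 1 month and dorsal at 6 months, so time and tissue cannot be told apart there or in the interaction. The comparison of times had 0 calls by either tool, against 0.0442% of all genes, and 1 unadjusted (Acss3 at 0.84 ± 0.33), against 13.7%. Pdha1 was at -0.14 ± 0.07 (edgeR adjusted p 0.37). Choroid plexus and meninges markers summed to 99 to 1388 CPM at 1 month and 146 to 6116 CPM at 6 months in these mice, and their part in the Acss3 values here and in the interaction was not tested. Without replicate 1 of 6 months, the mouse with 6116 CPM, the Acss3 value was 0.53.

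Across mice the level of each gene was set against that of Acss2 in 5 sets of mice (aged and PS19 with either virus, and 10-month with upACSS2, the 5 vector mice of 10 months being too few), 45 relations in all, with permutations of mice, within each time for PS19, and adjustment over the 45. Of these 1 passed. In the 10 PS19 mice with vector Dlat and Acss2 had Pearson's r of 0.876 (permutation p 5e-05, adjusted 0.00225) and Spearman's rho of 0.976 (adjusted 0.00225). These p-values come from 100000 sampled permutations. The 14400 possible arrangements, enumerated after the data were seen, gave an exact p of 6.94e-05 for both, the smallest they can give (adjusted 0.00312). Leaving out the 2 mice with the most extreme Acss2 levels gave r of 0.845, and after the mean of each time was subtracted it was 0.82. Dlat ran from 6.83 to 7.66 log2 CPM and Acss2 from 5.42 to 6.05. In the same mice Pdha1 had r of 0.841 (permutation, adjusted p 0.0785; 0.808 within times), Pdhb 0.748 (0.28; 0.612) and Crat -0.729 (0.359; -0.582), none of which passed, and for Crat r was -0.415 without the 2 farthest mice. In the 10 PS19 mice with upACSS2 Dlat had r of 0.342 (permutation, adjusted p 0.898). In the aged mice its r was 0.0173 with vector (permutation, adjusted p 0.968) and 0.0935 with upACSS2 (0.937). In the 10-month mice with upACSS2 it was 0.335 (0.898). Each PS19 time holds 5 mice per virus, too few for a value of its own. Depth and tissue composition are shared by both genes of a mouse, and their part in the relation was not tested.

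**Figure D5:**
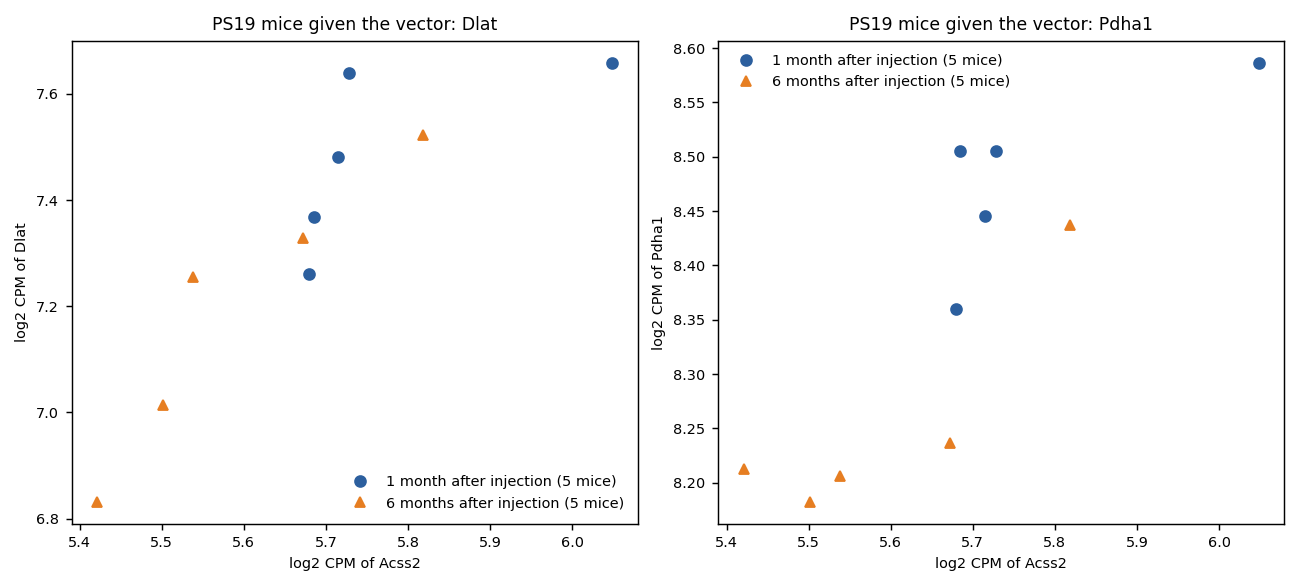
Log2 CPM of Dlat (left) and Pdha1 (right) against log2 CPM of Acss2 (x axis) in the 10 PS19 mice given the vector, 5 at 1 month (circles) and 5 at 6 months (triangles) after injection. Dlat spans 6.83 to 7.66 with r of 0.876 over the 10 mice, and Pdha1 spans 8.18 to 8.59 with r of 0.841, which did not pass the adjustment.

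The genes whose pattern over all 98 libraries was most like each member are given next as a description. After each table's mean was subtracted, Pearson's r was computed against 11249 genes, and libraries of a table share preparation and depth. Differences between groups of a table, such as culture age, remain in these values. Acss1 was most like Asrgl1 (0.962) and Ndrg2 (0.945). Acly was most like Acat2 (0.954) and Rdh11 (0.951), and Slc25a1 was most like Idh1 (0.917) and Mvd (0.913). Acat1 went with Rala (0.895) and Bzw1 (0.893), Pdhb with Atp6v1d (0.849) and Atp5pb (0.828), Dlat with Sv2b (0.836) and Ttc19 (0.831), and Pdha1 with Hsp90aa1 (0.807) and Polr3k (0.794). Crat, with Farp1 (0.699) and Tpcn1 (0.681), and Acss3, with Galm (0.677) and Pon3 (0.671), had the weakest partners.

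Within groups, that is with each group's mean removed, the strongest likeness among the 9 genes was that of the 2 subunits of the first pyruvate dehydrogenase enzyme, Pdha1 and Pdhb, at r of 0.723 over the 98 libraries. Pdha1 also went with Dlat (0.641) and Acat1 (0.612), Pdhb with Acat1 (0.543) and Dlat (0.503), and Acss1 with Crat (0.514). Dlat and Crat had r of -0.485. With only the table means removed Acly had r of 0.893 with Slc25a1 and 0.797 with Acat1. Within groups these were 0.39 and 0.00618. Pdha1 and Pdhb went the other way, from 0.428 to the value above. These values share library and depth and carry no test.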

How the data were processed

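RNA sequencing of 98 mouse libraries was deposited by the authors as raw read counts per gene symbol, in 6 tables. Per the submitters' processing notes STAR, featureCounts, HTSeq, DESeq2 and mm10 were used, and versions and strand setting are not given in the sources used here. A row without a gene name, 6.13 to 8.74% of counts in the tau culture, was left out.

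Groups came from the sample titles. Each table was analysed alone in R 4.3.3 with edgeR 4.0.16: TMM scaling, filterByExpr, the quasi-likelihood F test and Benjamini-Hochberg adjustment over all genes tested, for 27 comparisons. Levels are log2 CPM with a prior count of 2. Unstimulated groups of 1 culture day were fitted together, and day 21 against day 9 on all 24 libraries. Alternatives were DESeq2 1.42.0, RLE scaling, no filter, other sets of libraries, a replicate block, each library left out (not in the aged mice), limma 3.58.1 voom for culture age, and terms or subsets for the 2 aged sets. The code was tested on simulated data.

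Correlations used 100000 permutations, or exact permutation with 6 or 9 mice. Counts of all 242 replicate pairs differed beyond what sampling gives (chi-square per gene of at least 2.24). Replicate numbers were taken to pair libraries where every pair's deviations correlated above 0.1, in the tau culture (0.22 to 0.394), for upACSS2 in stimulated neurons with tau (0.111 to 0.36) and for tau in stimulated neurons with vector (0.124 to 0.327), and nowhere else. The main fits had no term for these pairs, which entered only through the replicate block among the alternatives. Besides the 9 genes and Acss2, at most the 2 highest and 2 lowest called genes of 44 pathway genes were named per comparison, and the 2 genes most like each member. Some genes that this rule names are not reported here. The members and lists were chosen with earlier results of these data known.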

Additional observations from a re-analysis of the deposited data

Results flagged for a closer look

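In 4 groups 1 library lay apart from the rest of its group. Crat in the tau culture was at 6.003 log2 CPM in tau replicate 3, against 6.140 to 6.163 in the other 3. Acss3 was at 2.996 in 10-month upACSS2 replicate 1, against 1.040 to 1.581. Slc25a1 was at 4.713 in PS19 vector replicate 2 at 1 month, against 4.931 to 4.995, and Pdha1 at 8.437 in PS19 vector replicate 2 at 6 months, against 8.183 to 8.236. Over 63 such checks chance gives about 3.15.

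For Pdha1 and Pdhb fully separated groups pointed in opposite directions in different settings. These pairs were found by scanning the 9 genes over the comparisons of virus and of tau. Groups of 3 libraries can separate by chance, and neither the number expected nor the share over all genes was computed. Of the values below only those of upACSS2 against vector in PBS on day 9 were called. With upACSS2 Pdha1 was higher in every stimulated library, by 0.140 in PBS and 0.151 in tau on the log2 scale, and lower in every day 9 library in PBS, by -0.146. With upACSS2 on day 9 Pdhb had 0.074 in tau and -0.180 in PBS, and the test of that difference is the interaction, 0.25 (edgeR adjusted p 0.0613). With tau Pdha1 had 0.168 on day 21 with vector, 0.127 in stimulated neurons with vector and 0.138 with upACSS2, against -0.291 in the tau culture and -0.089 on day 9 with vector. With tau Pdhb had 0.1 on day 9 with upACSS2, against -0.335 in the tau culture and -0.154 on day 9 with vector. Apart from the Pdhb values in day 9 neurons, these differences were not tested.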

How the results depend on the processing

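Counts below are of the 9 genes called. The share of all genes called under each of these settings was not computed. A gain or loss among the 9 therefore cannot be told from a general change in calls. Without the filter on low counts edgeR called 2 for tau with vector and 2 for the interaction on day 9, 1 for tau with upACSS2 in stimulated neurons, and 0 for PS19 vector mice over time. DESeq2 called 1 for the day 9 interaction, 2 for upACSS2 in stimulated neurons with tau, 1 for tau with vector and 1 for tau with upACSS2 there, and 3 for PS19 vector mice over time. With only the groups compared, tau with upACSS2 in stimulated neurons had 1, and PS19 vector mice over time kept a count of 1 with Acat1 in place of Pdha1. With all 24 unstimulated libraries, upACSS2 in PBS had 0 on day 9 and 1 on day 21. The causes were not tested.

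With the replicate block 1 gene was called for tau with vector and 1 for tau with upACSS2 in stimulated neurons, and 0 for PS19 vector mice over time. Numbers pair the libraries only in the first of these, and the block changed no other count by over 1.5 times.

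With 1 library left out counts ran from 0 to 3 for upACSS2 in PBS on day 9, 0 to 3 for tau with vector on day 9, 0 to 1 for the day 9 interaction, 0 to 1 for upACSS2 in stimulated neurons with tau, 0 to 2 for tau with vector there and 0 to 2 for PS19 vector mice over time. Over 72 fold changes of single genes and 969 alternative values, 904 kept direction and side of the threshold, 38 gained a call, 27 lost one and 0 reversed. Acss3, at 1 to 152 counts per library, is limited by depth.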
